A study of Mus musculus with 16 samples.

Results

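Keratinocytes of 8 wild-type mice were compared between postnatal day 24 and postnatal day 35, with 4 mice at each age out of the 16 mice of the series. They were taken as the samples whose titles name a genotype-negative littermate at either age. The wild-type mice carried neither transgene (K5tTA- and tetop-LA G608G-, F1-line VF1-07) on the FVB/NCrl background, which is albino. The other 8 mice carried both (K5tTA+ and tetop-LA G608G+). In them the keratin 5 promoter drove a lamin A minigene with the progerin mutation of Hutchinson-Gilford progeria syndrome (HGPS). They are used here to ask whether a change with age differed, and at day 24 in a comparison of the sexes. All 16 mice also share 1 estimate of the spread, so the HGPS mice enter the SE and adjusted p of the wild-type changes. All mice, wild-type ones included, had received 100 µg/ml doxycycline and 2.5% sucrose in the drinking water during embryogenesis until postnatal day 0. The epidermis was lifted with trypsin from trimmed skin freed of subcutaneous tissue, and the RNA of 1 mouse was hybridized to 1 Affymetrix mouse exon array. At day 24 there were 2 females and 2 males, at day 35 1 female and 3 males. Replicates 1 and 2 of day 24 and replicate 1 of day 35 are the females. The sample titles and the age field give day 35 for the older mice while their source name repeats day 24, and the titles were followed.

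In mice the hair follicle cycles between growth (anagen), regression (catagen) and rest (telogen). During growth, proliferating matrix cells at the base of the follicle feed the hair shaft and the inner root sheath, each built from its own keratins, while resting follicles keep a bulge of stem cells and no growing shaft. The weeks after weaning follow a first rest and normally take in an early adult growth phase. Wnt and Hedgehog signals promote growth, while BMP and FGF18 signals hold the bulge at rest. Between the follicles, basal keratinocytes divide, move up through spinous and granular layers and end as cornified cells.

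A gene value is the mean log2 signal over the probe sets that name that gene alone, and 15830 genes were tested with limma. A gene was called when its Benjamini-Hochberg adjusted p was under 0.05 and its change was at least 2-fold, and "rose" or "fell" below is used for an adjusted p under 0.05 at any size. From day 24 to day 35, 194 genes were called higher (1.23% of those tested) and 119 lower (0.752%). The balance depended on the summary: without probe sets under a mean of 5 there were 313 higher and 1004 lower, and with the median over a gene's probe sets 404 higher and 162 lower. Without the fold threshold 2372 rose (15%) and 3742 fell (23.6%). The 4 values of day 35 lay wholly above those of day 24 for 2402 genes (15.2%) and wholly below for 4262 (26.9%). The lower side held the larger single changes, up to a 14.9-fold fall of Krt33a. Small falls were mostly in dim genes. Of the 7128 genes with a mean under 4, 15.3% had a positive difference and the median was -0.115, against a median of 0.138 among the 3112 genes with a mean of 6 to 8. The lower quartile of all probe sets on an array was 3.193 to 3.216 at day 24 and 3.134 to 3.161 at day 35, and its part in these falls was not tested. Arrays of 1 age correlated at 0.981 to 0.9888 and arrays of different ages at 0.9536 to 0.9686. Mouse ID prefixes lay within 1 age each, so litter or batch differences that follow them and age cannot be told apart. Each array came from a different mouse.

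**Figure D1:**
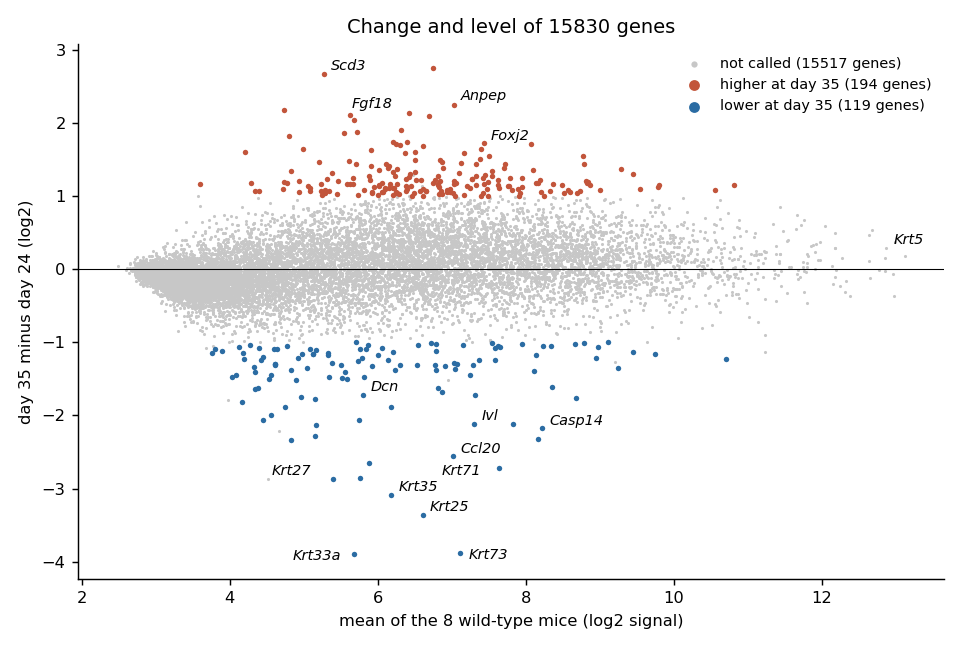
Each point is 1 of 15830 genes, placed by its mean log2 signal in the 8 wild-type mice (horizontal axis) and by day 35 minus day 24 in log2 units (vertical axis). The 194 genes called higher are red, the 119 called lower are blue, and the keratins Krt33a and Krt73 lie lowest, near -3.9.

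Krt5, the basal layer keratin that marks these cells, stood at 12.72, 12.75, 12.64 and 12.78 in the day 24 mice and at 13.09, 13.02, 12.99 and 12.98 in the day 35 mice. It rose by 0.29 (SE 0.10, adjusted p = 0.0314, limma). It no longer passed when any single mouse other than day 24 replicate 4 or day 35 replicate 3 was left out (0.27 to 0.31). In these fits the spread is shared with the HGPS mice, which stood at 12.31 to 12.90 at day 35. Fitted to the 8 wild-type mice alone, Krt5 passed with the same rise (SE 0.049, adjusted p = 0.00229, limma). Eif2s3y, a Y-linked gene, was at 3.14 and 3.21 in the day 24 females, at 3.16 in the day 35 female and at 8.34 to 9.10 in the 5 wild-type males, as the sex labels say.

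The inner root sheath keratins fell together. Of the 7 measured members of the list of inner root sheath and companion layer keratins, 5 were called lower (0.752% of all genes) and none higher. All 7 fell (23.6% of all genes), and the median difference was -2.72 (all genes -0.0682). The promoters of those 5 are shown because they are the members called, with the RefSeq sequence of the GRCm38.p6 build from 250 bases before to 50 after the annotated start, read 5′ to 3′ along the gene. Capitals mark TATAAA, the core of the TATA box, and CTTTG, the core of the LEF/TCF motif, each on either strand (TTTATA and CAAAG when read on the other). Krt25 is at chr11:99322902-99323201, Krt27 at chr11:99351069-99351368, Krt71 at chr15:101743048-101743347, Krt72 at chr15:101786471-101786770 and Krt73 at chr15:101802311-101802610, all on the minus strand.
Krt25: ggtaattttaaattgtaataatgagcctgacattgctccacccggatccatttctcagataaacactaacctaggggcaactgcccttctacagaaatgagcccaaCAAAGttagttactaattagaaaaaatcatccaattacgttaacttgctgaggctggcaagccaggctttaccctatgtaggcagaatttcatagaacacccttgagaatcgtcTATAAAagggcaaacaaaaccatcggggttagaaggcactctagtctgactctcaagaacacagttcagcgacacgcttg
Krt27: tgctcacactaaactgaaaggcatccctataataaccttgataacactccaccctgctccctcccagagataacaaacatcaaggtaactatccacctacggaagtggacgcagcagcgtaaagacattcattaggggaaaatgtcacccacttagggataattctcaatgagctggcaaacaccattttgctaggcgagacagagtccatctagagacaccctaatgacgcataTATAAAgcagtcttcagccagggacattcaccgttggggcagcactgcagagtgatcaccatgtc
Krt71: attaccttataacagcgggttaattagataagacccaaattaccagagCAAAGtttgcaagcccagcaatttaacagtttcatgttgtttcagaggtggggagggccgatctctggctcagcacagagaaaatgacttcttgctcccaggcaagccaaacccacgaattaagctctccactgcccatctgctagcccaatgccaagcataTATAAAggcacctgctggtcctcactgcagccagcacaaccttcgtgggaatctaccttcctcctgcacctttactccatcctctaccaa
Krt72: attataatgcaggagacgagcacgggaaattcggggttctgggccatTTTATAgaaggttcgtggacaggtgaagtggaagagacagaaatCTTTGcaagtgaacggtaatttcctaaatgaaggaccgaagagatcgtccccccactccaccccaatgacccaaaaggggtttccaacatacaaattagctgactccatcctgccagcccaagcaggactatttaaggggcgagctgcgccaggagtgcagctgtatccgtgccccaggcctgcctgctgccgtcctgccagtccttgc
Krt73: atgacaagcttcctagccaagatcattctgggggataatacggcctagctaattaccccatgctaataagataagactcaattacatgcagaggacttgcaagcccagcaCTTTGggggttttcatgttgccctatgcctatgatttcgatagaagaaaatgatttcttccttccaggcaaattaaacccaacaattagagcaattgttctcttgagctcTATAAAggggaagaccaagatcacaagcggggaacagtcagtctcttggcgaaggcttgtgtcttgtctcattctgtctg
All 5 windows hold TATAAA, against 13.6% of 32851 RefSeq promoter windows of the same length. It begins at position -30 in Krt25 and Krt73, at -15 in Krt27 and at -40 in Krt71, while in Krt72 the match is on the other strand at -203. CTTTG is in 4 of the 5 windows and in 53.9% of all windows. These matches are descriptions of the letters and not sites shown to be bound.

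Krt73, a type II keratin of the inner root sheath cuticle, was at 8.06, 8.18, 10.30 and 9.64 in the day 24 mice and at 4.63, 6.38, 5.70 and 3.94 in the day 35 mice. No value of the older mice reached the lowest of the younger, and the fall was 14.8-fold (-3.88, SE 0.69, adjusted p = 0.000694). All 10 of its probe sets were called lower. Krt25, a type I partner keratin, stood at 7.58, 7.49, 9.33 and 8.73 and then at 4.79, 5.83, 5.02 and 4.06, a fall of 3.36 (SE 0.56, adjusted p = 0.000452), with 8 of 9 probe sets called. Krt27, another type I sheath keratin, went from 6.01, 6.15, 7.73 and 7.41 to 4.02, 4.42, 3.98 and 3.42 (-2.86, SE 0.49, adjusted p = 0.000511). Krt71, mutations of which give curly coats in several mammals, went from 8.17, 8.17, 10.13 and 9.51 to 6.38, 7.36, 6.40 and 4.97 (-2.72, SE 0.62, adjusted p = 0.00352). In all 4 genes the 2 males were the highest mice of day 24, and at day 35 replicate 2 was highest and replicate 4 lowest. Krt72 fell by 1.44 (SE 0.38, adjusted p = 0.00858) and was named after its values were seen. Keratins of 1 type are close in sequence, and probe sets that share signal between them cannot be told apart here.

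The keratins of the hair shaft itself split the day 24 mice by sex. Krt33a was at 5.24 and 5.53 in the 2 females of day 24 and at 10.14 and 9.57 in the 2 males, and at 3.90, 3.92, 3.79 and 3.28 in the day 35 mice. It fell by 3.90 (SE 1.20, adjusted p = 0.0196), with 3 of 6 probe sets called lower. The call of the gene was lost without day 24 replicate 3 or replicate 4, the 2 males (-3.06, adjusted p = 0.0648, and -3.25, adjusted p = 0.0628). Krt35, a keratin of the shaft cortex and matrix, was at 6.62, 6.31, 9.26 and 8.72 at day 24 and at 4.25, 5.10, 5.18 and 4.04 at day 35 (-3.09, SE 0.71, adjusted p = 0.00399). Krt31, which had the same split (3.29, 3.25, 6.99 and 5.92, then 3.17, 3.15, 3.10 and 2.89), did not pass with all mice (-1.79, adjusted p = 0.0766). It passed with sex as a covariate (-2.25, adjusted p = 0.00523) and without day 24 replicate 1 or 2, the females (adjusted p = 0.0322 and 0.0329). Neither makes the fall firmer. The sex term rests mostly on the day 24 split and is carried to day 35, where the female (3.17) lay with the males (3.15, 3.10 and 2.89). Leaving out a low female raises the day 24 mean by construction. Of the 9 measured shaft keratins 3 were called lower and none higher. At any size 6 fell and 1 rose, against 23.6% and 15% of all genes, with a median of -0.77. The promoter of Krt31, at chr11:100050502-100050801 on the minus strand, is shown with the same marks, to set a shaft keratin beside those of the sheath.
Krt31: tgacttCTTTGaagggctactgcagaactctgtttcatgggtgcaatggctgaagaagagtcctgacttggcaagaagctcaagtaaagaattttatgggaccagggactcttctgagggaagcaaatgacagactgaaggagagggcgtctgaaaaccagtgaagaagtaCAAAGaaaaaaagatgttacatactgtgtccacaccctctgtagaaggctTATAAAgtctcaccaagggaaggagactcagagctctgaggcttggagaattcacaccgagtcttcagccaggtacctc
Here TATAAA begins at position -29.

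Several other proteins of the shaft and sheath also fell. S100a3, a calcium-binding protein of the hair cuticle, was at 5.31, 5.57, 7.23 and 7.08 and then at 4.15, 4.32, 4.13 and 3.47 (-2.28, SE 0.49, adjusted p = 0.00238). Gprc5d, a receptor expressed in hard keratin tissue, went from 3.99, 4.19, 6.25 and 5.87 to 3.31, 3.29, 3.33 and 3.12 (-1.81, adjusted p = 0.0191), and lost the call without day 24 replicate 3 (-1.42, adjusted p = 0.0634) or replicate 4 (-1.55, adjusted p = 0.0597). Dsg4, the desmosomal cadherin of the shaft, fell by 1.64 (adjusted p = 0.0302), with adjusted p from 0.0508 to 0.0964 when any mouse but a day 24 female was left out. Of 14 measured genes of this list 5 were called lower and none higher, and 10 fell, against 23.6% of all genes (median -0.57). Of 20 keratin-associated proteins, which embed the shaft's filaments, none was called and 3 fell, no larger a share than the 23.6% of all genes. Krtap15 had the largest difference among them, from 3.79, 3.99, 8.83 and 7.18 to 2.94, 3.28, 3.10 and 3.0 (-2.87, adjusted p = 0.0501). It passed with sex as a covariate (-3.58, adjusted p = 0.00156), with the limit given for Krt31. Krtap14 (-1.08, adjusted p = 0.131) and Krtap13-1 (-1.05, adjusted p = 0.0718) followed it. Prr9, a proline-rich protein, went from 5.83, 6.67, 8.48 and 7.77 to 4.48, 5.52, 4.04 and 3.31 (-2.85, adjusted p = 0.00623) and was among the 10 largest falls.

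**Figure D2:**
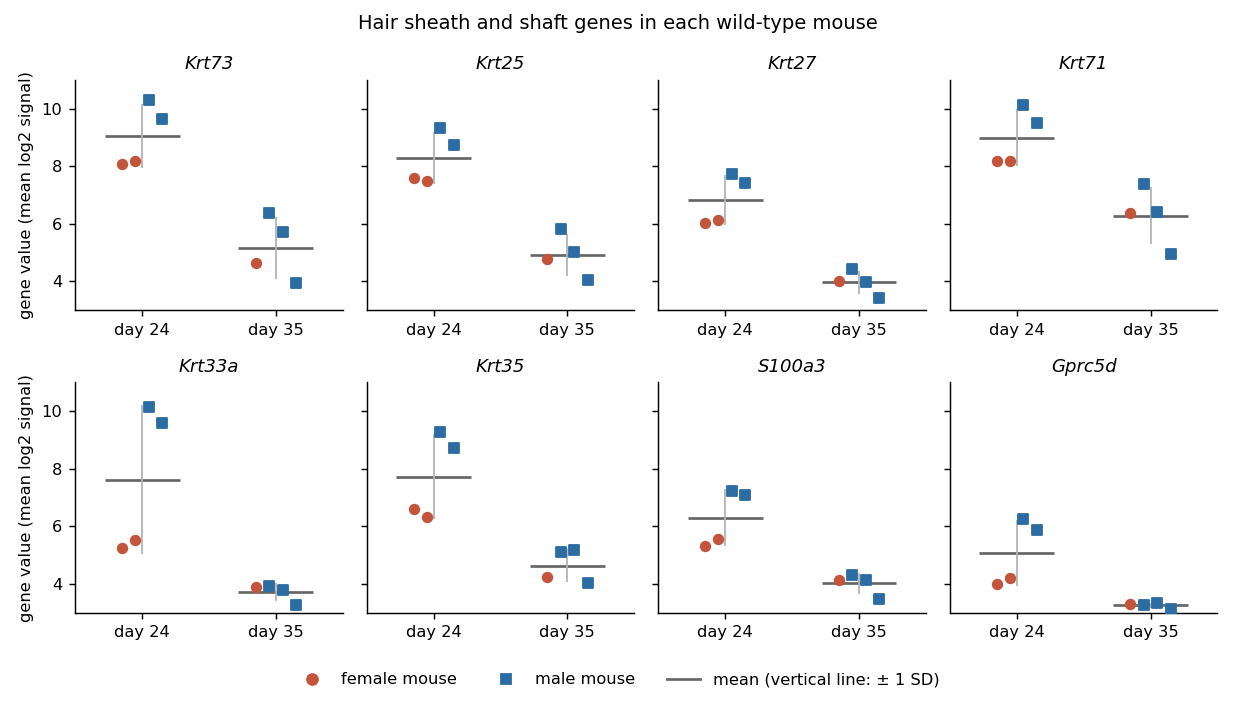
Mean log2 signal (vertical axis) of 8 hair sheath and shaft genes in each wild-type mouse at day 24 and day 35. Circles are females, squares are males, horizontal lines are means of 4 mice and vertical lines ± 1 SD. In Krt33a the day 24 males are at 9.57 and 10.14 and the females at 5.24 and 5.53, while all day 35 mice are under 4.

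The split at day 24 was looked at across all genes after these values were seen, as female minus male over the 8 mice of day 24 with genotype as a term. It called 33 genes higher in males (0.208%) and 13 higher in females (0.0821%). Of the 7 inner root sheath and companion layer keratins 5 were called, and of the 9 shaft keratins 4, all of them higher in males. Krt33a averaged 5.38 in the wild-type females and 9.86 in the wild-type males, and 4.95 and 9.0 in the HGPS females and males (difference -4.26, adjusted p = 0.0298). Selenbp1, a selenium-binding protein, averaged 3.76 in wild-type females and 7.79 in wild-type males, and 3.44 and 5.48 in HGPS females and males (-3.04, adjusted p = 0.0362). In the wild-type mice it was at 3.77, 3.74, 8.15 and 7.44 and then at 3.36, 3.59, 3.65 and 3.67 (-2.21, adjusted p = 0.0601). Cyp2g1, a cytochrome P450, ran the other way, at 9.35 and 9.48 in the day 24 females, 7.89 in the day 35 female and 3.80 to 4.54 in the 5 wild-type males. The calls rest on few mice: with mouse ID prefix as a term 2 genes stayed higher in each sex, and leaving out 1 mouse of day 24 gave 2 to 33 genes higher in males and 1 to 14 higher in females. Only the loss of day 24 wild-type replicate 4 (23 in males) or HGPS replicate 4 (33) kept the male count within 1.5 times. No test of sex was made at day 35, where 1 wild-type mouse is female.

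Of 15 transcription factors of the hair matrix 1 was called higher and none lower. At any size 3 rose and 2 fell, against 15% and 23.6% of all genes, so these counts do not set the list apart. Hr (hairless), a corepressor needed for the follicle to regress and regrow, was at 8.15, 8.20, 8.17 and 8.30 and then at 9.37, 9.43, 9.43 and 9.41. The spread within each age was a small part of the 2.31-fold rise (1.21, SE 0.07, adjusted p = 9.44e-08). Gata3, required for the inner root sheath, rose by 0.94 (adjusted p = 1.07e-05) and Foxq1, a shaft medulla factor, by 0.91 (adjusted p = 0.00376). Lef1, the Wnt effector of the matrix, was at 4.06, 4.15, 5.82 and 5.14 and then at 3.80, 4.22, 3.90 and 3.87 (-0.84, adjusted p = 0.0502). With sex as a covariate it passed (-1.04, adjusted p = 0.0029), with the limit given for Krt31. Hoxc13, which directs hair keratin genes, was at 4.75, 4.69, 6.09 and 5.43 and then at 4.26, 4.82, 4.88 and 4.39 (-0.65, adjusted p = 0.0814). Foxn1, the nude gene, did not pass (0.45, adjusted p = 0.113).

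Among Wnt genes the few calls were of receptors, inhibitors and feedback targets, too few to place the change in any part of the pathway. Of 19 ligands none was called, 1 rose (15% of all genes) and 5 fell, a share near the 23.6% of all genes. Wnt7b rose by 0.49 (adjusted p = 0.00414), Wnt5b fell by 0.38 (adjusted p = 0.00985), and neither Wnt5a (-0.37, adjusted p = 0.233) nor Wnt10b, an anagen ligand (-0.12, adjusted p = 0.502), passed. Wnt5b turned to 0.25 (adjusted p = 0.395) without dim probe sets. Of 15 receptors 1 was called higher and none lower, and at any size 3 rose and 2 fell. Fzd8, a Frizzled receptor, went from 5.44, 5.18, 4.75 and 5.43 to 6.63, 6.38, 6.84 and 6.6 (1.41, SE 0.14, adjusted p = 6.6e-06). Fzd7 rose by 0.87 (adjusted p = 4.63e-05) and the co-receptor Lrp5 by 0.59 (adjusted p = 1.86e-05).

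The inhibitors and feedback targets of the Wnt pathway held calls on both sides, 1 higher and 2 lower of 14. At any size 2 rose and 7 fell, against 15% and 23.6% of all genes. Wif1, a secreted Wnt inhibitor, was at 5.30, 4.97, 6.43 and 5.88 and then at 4.03, 4.31, 4.15 and 4.05 (-1.51, SE 0.32, adjusted p = 0.00208). Sfrp1, another secreted inhibitor, went from 8.4, 8.28, 7.69 and 8.23 to 7.09, 7.12, 7.05 and 7.15 (-1.05, adjusted p = 8.04e-05). Rnf43, a ubiquitin ligase that removes Frizzled receptors and is itself a Wnt target, went the other way, from 5.41, 5.41, 5.38 and 5.59 to 6.79, 6.53, 6.56 and 6.44 (1.14, SE 0.09, adjusted p = 9.43e-07). Axin2, the common readout of canonical Wnt signalling, was named after its values were seen and rose by 0.91 (adjusted p = 9.57e-06), from 5.30, 5.31, 5.57 and 5.50 to 6.19, 6.24, 6.33 and 6.55.

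Of 13 Hedgehog genes 1 was called higher and none lower. At any size 3 rose and 3 fell, against 15% and 23.6% of all genes. Shh, the ligand made by the growing matrix, was at 4.20, 4.0, 4.28 and 4.14 and then at 3.51, 3.26, 3.37 and 3.38. The ages did not overlap, as for 26.9% of all genes on the lower side, and the fall was 1.71-fold (-0.77, SE 0.11, adjusted p = 0.000129). Of its 7 probe sets 1 was called lower. Gas1, a Hedgehog co-receptor that also marks the hair germ and bulge, went from 5.90, 5.55, 5.48 and 5.89 to 7.36, 7.41, 7.23 and 7.20 (1.6, SE 0.11, adjusted p = 3.91e-07). Boc, a co-receptor of the same group, rose by 0.53 (adjusted p = 0.00185).

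Of 23 BMP and activin genes 2 were called higher and 1 lower. At any size 6 rose and 6 fell, against 15% and 23.6% of all genes. Bmp2, a ligand that holds bulge cells at rest, was at 5.89, 5.67, 5.44 and 6.01 and then at 6.81, 7.47, 6.97 and 7.74 (1.49, SE 0.21, adjusted p = 0.000128). Smad7, an inhibitor induced by the pathway, rose by 1.16 (adjusted p = 1.35e-06), while Bambi, a decoy receptor, fell by 1.16 (adjusted p = 0.00219). Of 20 FGF and EGF genes 3 were called higher and 1 lower, and at any size 6 rose and 6 fell, against the same shares. Fgf18, made by the resting bulge, was among the 10 largest rises, from 5.25, 5.15, 5.64 and 5.39 to 7.22, 7.49, 7.74 and 7.50 (2.13, SE 0.18, 4.39-fold, adjusted p = 1.93e-06). Spry1, a feedback inhibitor of FGF signalling, rose by 1.28 (adjusted p = 2.01e-05) and Btc, the EGF-family ligand betacellulin, fell by 1.50 (adjusted p = 4.3e-05). Fgf5, which ends anagen, was at 3.05 to 3.20 in all 8 mice (-0.06, adjusted p = 0.327). These values lie near the lower quartile of all probe sets, 3.193 to 3.216 at day 24 and 3.134 to 3.161 at day 35. At so dim a signal a change could be missed.

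The hair follicle stem cell and bulge list had the highest median of the 23 pathway lists, 0.70 over 17 measured genes. In it 4 were called higher and 1 lower. At any size 9 rose and 2 fell, against 15% and 23.6% of all genes. Cd34, the surface marker of mouse bulge cells, was at 6.36, 6.13, 5.99 and 6.47 and then at 7.57, 7.47, 7.31 and 7.24 (1.16, SE 0.15, adjusted p = 6.24e-05). Npnt (nephronectin), a basement membrane protein of the bulge, was the 1 member called lower, from 7.16, 7.24, 6.48 and 6.93 to 5.75, 5.90, 5.26 and 5.68 (-1.30, adjusted p = 5.54e-05). Krt15, a bulge and basal keratin, did not pass (-0.04, adjusted p = 0.79) and changed sign in 3 of its alternatives without passing. Lgr5 did not pass (0.44, adjusted p = 0.373). Fgf18 and Gas1 are also members of this list.

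Cell cycle genes fell by small steps. Of 35 measured, 1 was called lower and none higher, 23 fell and none rose, and the median was -0.42, against 23.6% of all genes that fell. Mki67, the Ki-67 proliferation antigen, was at 6.18, 6.40, 6.88 and 6.10 and then at 5.52, 5.49, 4.86 and 5.34 (-1.09, SE 0.30, adjusted p = 0.0105). Bub1, a spindle checkpoint kinase, fell by 0.76 (adjusted p = 0.00332), and Ube2c, a ubiquitin-conjugating enzyme of mitosis, by 0.75 (adjusted p = 0.000232). In tissue of this kind fewer cells of a type and less RNA per cell cannot be told apart, here and for every list.

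**Figure D3:**
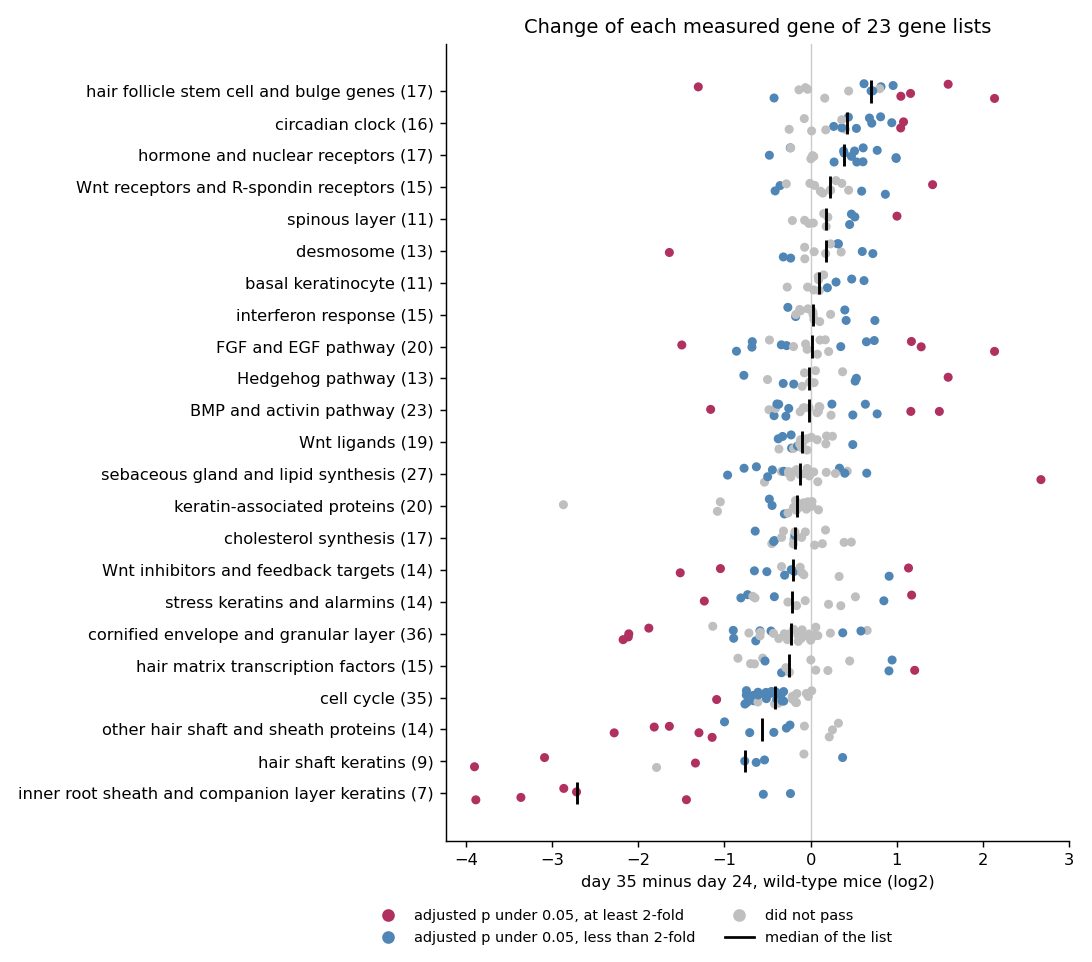
Day 35 minus day 24 in wild-type mice (horizontal axis, log2) for each measured gene of 23 pathway lists, 1 row a list with its number of genes, ordered by median (black bar). The inner root sheath list lies farthest to the left with a median of -2.72, and the bulge list farthest to the right with 0.70.

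Basal and spinous genes had few calls. Of 11 basal keratinocyte genes none was called, 4 rose and none fell, against 15% and 23.6% of all genes. Col17a1, a hemidesmosome collagen, rose by 0.62 (adjusted p = 0.00167) and its partner integrin Itgb4 by 0.48 (adjusted p = 0.00323), while Krt14 did not pass (0.10, adjusted p = 0.385). Of 11 spinous genes 1 was called higher, 4 rose and none fell, against the same shares. Notch3, a receptor of spinous commitment, rose by 1.00 (adjusted p = 6.25e-06), and the differentiation factors Klf4 (0.51, adjusted p = 0.00228) and Grhl3 (0.47, adjusted p = 0.00872) rose too.

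Of 36 genes of the granular layer and cornified envelope 4 were called lower (0.752% of all genes) and none higher. At any size 9 fell, a share near the 23.6% of all genes, and 2 rose (median -0.22). Casp14, the caspase of cornification that processes filaggrin, was at 9.15, 9.32, 9.40 and 9.33 and then at 6.80, 7.21, 7.52 and 6.97. No mouse of day 35 came near the lowest of day 24, and it fell 4.52-fold (-2.18, SE 0.37, adjusted p = 0.000473) with all 6 probe sets called. Ivl (involucrin), a scaffold of the envelope, went from 8.50, 8.25, 8.42 and 8.26 to 6.26, 5.56, 6.73 and 6.42 (-2.12, SE 0.35, adjusted p = 0.000377). Lce1b, a late envelope protein with close copies in its cluster, went from 8.82, 9.88, 8.17 and 8.66 to 6.80, 7.32, 6.69 and 6.29 (-2.11, adjusted p = 0.000223, 2 probe sets). In Casp14 and Ivl the 4 mice of day 24, females and males, lay close together.

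Ccl20, a chemokine that keratinocytes make to draw CCR6-bearing immune cells, was among the 10 largest falls, from 8.44, 8.65, 7.51 and 8.57 to 5.84, 5.88, 5.67 and 5.54 (-2.56, SE 0.28, 5.89-fold, adjusted p = 1.7e-05). Of 14 stress keratins and alarmins 1 was called higher and 1 lower. At any size 2 rose and 4 fell, against 15% and 23.6% of all genes. Lcn2, an antimicrobial lipocalin, rose by 1.17 (adjusted p = 0.00467). Il1f8, an IL-36 cytokine, was at 5.24, 5.96, 3.75 and 4.29 and then at 3.63, 3.55, 3.63 and 3.51 (-1.23, adjusted p = 0.0185), and lost the call without day 24 replicate 1 or 2 (-1.09, adjusted p = 0.0524, and -0.85, adjusted p = 0.0567). Krt6a, a keratin of stressed and follicular epithelium, rose by 0.85 (adjusted p = 0.00951). Of 13 desmosome genes 1, Dsg4, was called lower and none higher, and at any size 4 rose and 3 fell, against the same shares. Among the rises were Jup (plakoglobin, 0.60, adjusted p = 2.29e-05) and Dsg1b (0.72, adjusted p = 0.00384, 1 probe set).

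Sebaceous and lipid genes showed 1 call of 27, which was higher. At any size 4 rose and 6 fell, shares near the 15% and 23.6% of all genes. Scd3, a desaturase expressed in the sebaceous gland, was at 3.56, 3.78, 4.67 and 3.73 and then at 4.33, 6.32, 7.35 and 8.42 (2.67, SE 0.65, adjusted p = 0.00536). The ages overlapped, and the day 35 female was the low mouse. Acaca, the first enzyme of fatty acid synthesis, fell by 0.96 (adjusted p = 2e-05). Soat1, which esterifies cholesterol, fell by 0.77 (adjusted p = 0.0419), with adjusted p from 0.0864 to 0.12 when any of the day 24 replicates 1, 2 or 3 or the day 35 replicates 1 or 2 was left out. None of 17 cholesterol synthesis genes was called, none rose and 4 fell, a share near the 23.6% of all genes. Insig1, a sterol sensor, was down by 0.64 (adjusted p = 0.00388), while Hsd17b7 (0.47, adjusted p = 0.0669) and Nsdhl (-0.45, adjusted p = 0.066) did not pass.

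Most circadian clock genes rose. Of 16 measured 2 were called higher and none lower, 10 rose (15% of all genes) and none fell, and the median was 0.42. Nr1d1 (REV-ERBα), the repressor arm of the clock, was at 10.16, 10.06, 9.68 and 10.18 and then at 11.28, 11.17, 10.91 and 11.02 (1.08, SE 0.12, adjusted p = 2.09e-05). Per1 was at 7.96, 8.09, 7.84 and 8.06 and then at 8.99, 9.20, 8.80 and 9.15 (1.04, SE 0.12, adjusted p = 2.78e-05). Hlf, a PAR bZIP output factor, rose by 0.94 (adjusted p = 6.24e-05). In these 3 genes no mouse of 1 age reached the other. The hour at which the mice were killed was not stated in the labels or methods, and its part in these values was not tested. One of the annotated starts of Per1 (chr11:69098699-69098998, plus strand, GRCm38.p6) holds the clock's E-box CACGTG, here in capitals, at position -166.
Per1: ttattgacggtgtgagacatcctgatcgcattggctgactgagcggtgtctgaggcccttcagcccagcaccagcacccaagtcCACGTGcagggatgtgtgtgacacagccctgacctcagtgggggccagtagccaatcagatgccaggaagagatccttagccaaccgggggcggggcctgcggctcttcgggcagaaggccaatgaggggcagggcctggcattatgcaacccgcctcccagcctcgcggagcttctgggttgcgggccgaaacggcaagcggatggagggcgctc
The same 6 letters are in 7.15% of all promoter windows and in those of 4 of the 14 measured clock genes that have windows.

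Hormone and nuclear receptors had no call of 17, while 11 rose and 2 fell (median 0.39), against 15% and 23.6% of all genes. Insr, the insulin receptor, rose by 0.99 (adjusted p = 2.09e-05), and the retinoic acid receptors Rarg and Rara by 0.99 (adjusted p = 2.4e-05) and 0.77 (adjusted p = 8.99e-05). Of 15 interferon response genes none was called, 3 rose and 2 fell, against the same shares. Irf9, a subunit of the interferon-stimulated gene factor, rose by 0.75 (adjusted p = 0.00204), and the RNA sensors Ddx58 and Ifih1 by 0.41 (adjusted p = 0.0339) and 0.40 (adjusted p = 0.018). Neither sensor passed without day 24 replicate 1 (adjusted p = 0.08 and 0.0512) or replicate 2 (0.0836 and 0.0582). Ddx58 also did not pass without day 24 replicate 4 or day 35 replicate 1 or 2 (0.0767 to 0.101).

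Of the 10 largest rises among called genes with at least 3 probe sets and no overlap between the ages, Fgf18 alone was in one of the lists. Scd3, with a larger difference, overlapped. Anpep (aminopeptidase N) was at 6.03, 5.82, 6.07 and 5.71 and then at 7.96, 8.23, 8.06 and 8.34, a 4.72-fold rise (2.24, SE 0.16, adjusted p = 5.02e-07) with all 23 probe sets called higher. Sectm1a, a secreted and transmembrane protein, went from 4.40, 4.37, 4.82 and 4.69 to 6.96, 6.72, 6.6 and 6.45 (2.11, adjusted p = 3.13e-07), and its neighbour and close copy Sectm1b rose by 1.88 (adjusted p = 0.000464). Fbrs (fibrosin) went from 5.70, 5.95, 5.34 and 5.60 to 7.39, 7.74, 7.84 and 8.01 (2.09, adjusted p = 2.59e-07). Ache, acetylcholinesterase, was at 4.74, 4.69, 4.40 and 4.79 and then at 6.67, 6.61, 6.80 and 6.70 (2.04, SE 0.12, adjusted p = 1.1e-07). In Anpep, Sectm1a, Fbrs and Ache the ages were far apart and the mice of 1 age close together, while Sectm1b spread from 4.19 to 5.84 at day 24 and lay at 6.45 to 6.92 at day 35. Nat8l, which makes N-acetylaspartate, rose by 1.82 (adjusted p = 7.69e-06), Dpysl3, a cytoskeletal regulator, by 1.74 (adjusted p = 9.51e-06), Irf2bpl, a ubiquitin ligase, by 1.74 (adjusted p = 2.3e-07) and the forkhead factor Foxj2 by 1.72 (adjusted p = 7.4e-08). Foxj2 stood at 8.26 to 8.31 in the 4 day 35 mice and at 6.49 to 6.71 in the 4 day 24 mice. Lmna, the gene of lamin A and C, whose mutant form the other genotype carried, was at 9.12, 9.07, 8.90 and 9.26 and then at 9.53, 9.43, 9.37 and 9.44 in these wild-type mice. It was higher by 0.36 at day 35 (exact permutation test, two-sided, 4 against 4 mice, p = 0.0286, the smallest such a design allows). With the median over its probe sets the difference was 0.2276 and did not pass (exact p = 0.114).

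**Figure D4:**
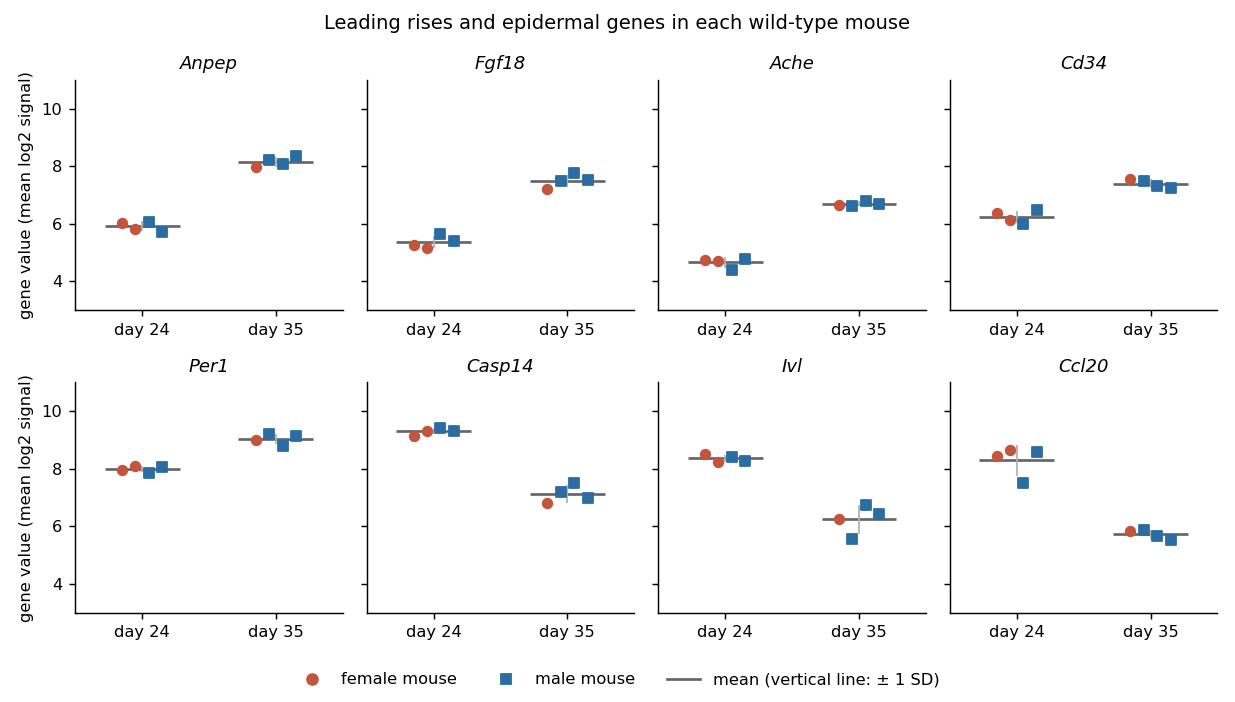
Mean log2 signal (vertical axis) of 8 genes in each wild-type mouse at day 24 and day 35, with circles for females, squares for males, horizontal lines for means of 4 mice and vertical lines for ± 1 SD. The upper row and Per1 are higher at day 35 in every mouse, and Casp14, Ivl and Ccl20 lower.

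Other cells of the skin were followed through marker lists. Of 12 melanocyte markers none was called, 9 fell (23.6% of all genes) and none rose (median -0.51). The list mean was 4.20 to 4.80 in the day 24 mice and 3.74 to 4.14 in the day 35 mice. Slc45a2, a melanosome transporter, fell by 0.88 (adjusted p = 0.000357), Pmel, the melanosome matrix protein, by 0.84 (adjusted p = 0.0196, lost without day 24 replicate 3 or 4 or day 35 replicate 1, 0.056 to 0.0631) and Tyr, tyrosinase, by 0.79 (adjusted p = 0.0105). Of 8 T cell and dendritic epidermal T cell markers none was called and 1, Cd3e, rose (0.90, adjusted p = 0.0161). Cd3e was at 6.73, 6.77, 7.35 and 7.08 at day 24 and at 8.30, 8.56, 7.37 and 7.30 at day 35. Replicates 1 and 2 of day 35 share 1 mouse ID prefix and replicates 3 and 4 the other, and the list mean was 6.65 and 6.68 in the first pair and 5.96 and 6.06 in the second. Cd3e no longer passed without either mouse of the first pair (adjusted p = 0.0504 and 0.0536). Ptprc (0.48, adjusted p = 0.177) and Cd3g (0.43, adjusted p = 0.193) did not pass.

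Of 12 Langerhans cell and macrophage markers none was called, and 1 rose and 1 fell. Cd74, the invariant chain, rose by 0.71 (adjusted p = 0.0266), which was lost without day 24 replicate 3 (0.53, adjusted p = 0.0876) or day 35 replicate 1 or 2 (adjusted p = 0.0774 and 0.0766). H2-Eb1 (-0.49, adjusted p = 0.0763) and Cd207 (langerin, -0.45, adjusted p = 0.227) did not pass. Of 12 fibroblast markers 1 was called in each direction, while Col1a2 did not pass (1.28, adjusted p = 0.0772). Col1a1, a chain of type I collagen, was at 6.2, 5.43, 6.16 and 6.56 and then at 7.81, 7.56, 7.81 and 7.15 (1.49, adjusted p = 0.0409), and Dcn (decorin) was at 6.61, 5.62, 7.71 and 6.69 and then at 6.06, 4.87, 4.38 and 4.47 (-1.71, adjusted p = 0.0274). The Col1a1 call was lost when any mouse but day 24 replicate 4 was left out (adjusted p = 0.0523 to 0.111), and the Dcn call without any of 5 mice, day 24 replicates 3 and 4 and day 35 replicates 2, 3 and 4 (0.0542 to 0.0866). Of 12 dermal papilla markers 8 fell (23.6% of all genes) and 1 rose, none past 2-fold. Vcan, a matrix proteoglycan, fell by 0.72 (adjusted p = 0.00776). Crabp1, a retinoic acid binder, fell by 0.84 (adjusted p = 0.0182), which was lost without day 24 replicate 3 or 4 or day 35 replicate 4 (0.0516 to 0.0607). Igfbp3, which keratinocytes also make, rose by 0.88 (adjusted p = 0.0161), which was lost without day 24 replicate 3 (0.051). Mast cell, endothelial, muscle and Merkel cell markers were dim, between 2.812 and 4.812 in all 8 mice, and 4 of 6, 5 of 10, 7 of 11 and 1 of 5 fell while none rose. Of 8 adipocyte markers, at 3.014 to 5.488, 4 fell and none rose. Falls outnumbered rises among dim genes in general: of the 7128 genes with a mean under 4, 2326 fell and 95 rose. Fabp4, a fatty acid carrier of fat cells, was at 3.21 and 3.37 in the day 24 females, at 5.19 and 4.30 in the day 24 males and at 3.14 to 3.20 in the day 35 mice (-0.84, adjusted p = 0.0574). Its day 24 males were thus above the females, as for the hair keratins. With sex as a covariate it passed (-1.01, adjusted p = 0.00819), with the limit given for Krt31. The part of other cells in the changes above was not tested.

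Single probe sets showed changes that gene means do not carry. Of 194293 probe sets, 9358 were called higher (4.82%) and 6257 lower (3.22%). A probe set of Mink1, a kinase of the Ste20 family, was at 5.57, 5.39, 4.53 and 5.88 and then at 8.96, 9.44, 8.98 and 9.55 (3.89, adjusted p = 2.54e-06), while the mean of the gene's 34 probe sets differed by 0.65. A probe set of the kinase gene Tesk1 rose by 3.85 (adjusted p = 5.81e-06) and one of Acsl1, a fatty acyl-CoA ligase, by 3.71 (adjusted p = 5.23e-06). On the lower side a probe set of Tfeb, a lysosomal transcription factor, was at 8.47, 10.18, 11.55 and 9.61 and then at 7.42, 4.15, 3.39 and 4.30 (-5.14, adjusted p = 0.00147), against -0.08 for the gene. One of Wdr62, a centrosome protein, went from 9.49, 9.74, 10.65 and 9.67 to 4.96, 5.53, 5.06 and 3.94 (-5.02, adjusted p = 4.95e-05), and one of Atp13a5 fell by 4.34 (adjusted p = 0.00113). Whether an exon, a nearby transcript or cross-hybridization gave these values was not tested. Of 15021 genes with at least 2 probe sets, 684 (4.55%) held a probe set called in each direction. Cux1, a homeobox gene of hair and epidermis, had 5 called higher and 4 lower of 38, with a gene difference of 0.06, and Htt, the huntingtin gene, 4 and 4 of 75.

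The change with age differed between wild-type and HGPS mice for 930 genes (5.87%) by the interaction test, at an adjusted p under 0.05 and a difference of at least 2-fold. The 4 HGPS mice of day 35 were all males. The hair keratins were not among those genes, and the HGPS mice showed -3.21 for Krt73 (interaction adjusted p = 0.623), -2.80 for Krt25 (0.613) and -3.20 for Krt33a (0.78). Such a p does not show that the changes were equal. Of the 36 cornified envelope genes 19 differed, of 14 stress genes 12 and of 11 basal keratinocyte genes 8. Of 17 bulge genes 8 differed and of 16 clock genes 5. The basal list had a median change of 0.10 for the wild type against -1.29 for the HGPS genotype. Casp14 fell by 2.18 in wild-type mice and was 1.54 in HGPS mice (adjusted p = 0.000126 for the difference), and Ccl20 fell by 2.56 and was 0.89 (adjusted p = 2.53e-05). Cd34 rose by 1.16 in wild-type mice against -1.68 in HGPS mice (adjusted p = 5.38e-07), Bmp2 by 1.49 against -1.31 (adjusted p = 1.09e-05) and Ache by 2.04 against -0.38 (adjusted p = 2.97e-07). Dbp, a clock output gene named after its values were seen, was 0.81 in wild-type and -1.52 in HGPS mice (adjusted p = 5.6e-05).

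**Figure D5:**
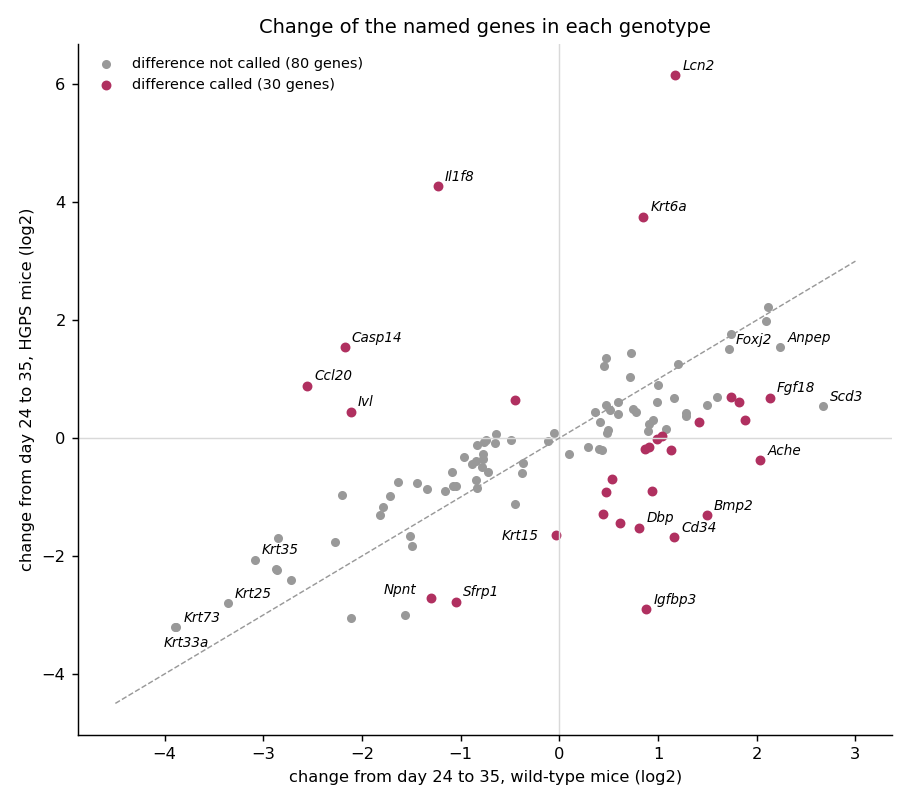
Change from day 24 to day 35 in wild-type mice (horizontal axis, log2) and in HGPS mice (vertical axis, log2) for the 110 genes followed. Red points are the 30 genes whose changes differed by the interaction test, the dashed line marks equal change, and Krt73, Krt25 and Krt33a lie at the lower left, with -3.21, -2.80 and -3.20 in the HGPS mice.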

How the data were processed

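Each of 16 arrays (Affymetrix Mouse Exon 1.0 ST, 1 mouse each) came as 1 column of log2 signals for 194293 probe sets, which the authors deposited after normalization. Their notes name RMA, GCRMA, Affymetrix Expression Console 1.1, Partek Genomics Suite 6.6, NetAffx release 33.1 and the mm9 build. No read depth applies, and the 4 mice per group limit the precision. The limma p-values weigh a difference against the spread between mice within groups. They do not cover litter or batch differences that follow age.

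Gene symbols came from the platform annotation: 179614 probe sets had 1 symbol, 1331 several and 13348 none. Of 15830 symbols 13745 were current, 2046 were updated from a synonym and 39 were kept as given. The probe sets of a gene were averaged, 4 group means were fitted to all 16 mice (limma 3.58.1, R 4.3.3), and day 35 minus day 24 in wild-type mice and its difference from HGPS mice were taken with Benjamini-Hochberg adjustment over all genes, or over all probe sets. The pipeline was tested on simulated data. Members and gene lists were chosen with earlier results of these data known. Chosen were the 10 largest rises and falls called with at least 3 probe sets and no overlap, the 3 largest differences of each list, 13 set genes, and the 3 probe sets farthest up and down in genes not called. Chosen genes of the mast cell, endothelial, muscle, Merkel cell, nerve and erythrocyte lists are not printed, nor are Plin1 and Cfd of the adipocyte list. Krt72, Axin2, Dbp, Selenbp1, Cyp2g1, Eif2s3y, Cux1 and Htt were added after values were seen. Close copies (Krt31 and Krt33a, Sectm1a and Sectm1b, Scd3, Lce1b, Krt6a, Selenbp1, the keratin-associated proteins) are uncertain. Alternatives were the wild-type mice alone, sex as a covariate, males alone, prefix and replicate blocks, array centring, median summary, a filter on dim probe sets, no fold threshold and each mouse left out.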

Additional observations from a re-analysis of the deposited data

Results flagged for a closer look

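In 8 of 220 groups of 4 mice (110 genes at each wild-type age), 1 mouse stood apart from the other 3 by Dixon's ratio, which chance does in about 1 group in 20. At day 24, Gata3 was at 10.34 in replicate 1, Lrp5 at 7.4, Krt14 at 11.45 and Ddx58 at 4.548 in replicate 3, and Rnf43 at 5.588 and Spry1 at 6.985 in replicate 4. At day 35, Klf4 was at 9.646 and Cyp2g1 at 7.894 in replicate 1, the female of that age.

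For 30 of the 110 genes the change with age differed between genotypes by the interaction test, given here as the HGPS change minus the wild-type change in log2 units. It was positive for Il1f8 (5.507), Lcn2 (4.979), Casp14 (3.715), Ccl20 (3.449), Krt6a (2.905), Ivl (2.559) and Nsdhl (1.104), which are envelope, alarm and sterol genes. Follicle and basal genes were negative, with Igfbp3 at -3.776, Cd34 at -2.842, Bmp2 at -2.803, Col17a1 at -2.06, Sfrp1 at -1.731, Lgr5 at -1.722, Krt15 at -1.609, Fgf18 at -1.452, Npnt at -1.41 and Itgb4 at -1.388. Wnt and Hedgehog genes were negative as well, with Rnf43 at -1.335, Boc at -1.221, Fzd8 at -1.15, Axin2 at -1.062 and Fzd7 at -1.048. So were the clock genes Dbp (-2.335), Hlf (-1.844) and Per1 (-1.017), and Ache (-2.414), Sectm1b (-1.568), Nat8l (-1.212), Irf2bpl (-1.033) and Insr (-1.004).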

How the results depend on the processing

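Most of the counts kept within 1.5 times under the other fits. With 1 mouse left out, genes called higher numbered 173 to 210 and lower 108 to 134, genes differing between genotypes 861 to 997, genes with probe sets called both ways 560 to 721, and probe sets 8525 to 9624 higher and 5377 to 6441 lower. The median over a gene's probe sets gave 404 genes higher. Leaving out probe sets with a mean under 5 gave 313 higher and 1004 lower, of which 787 rested on 1 or 2 probe sets and 105 were also called with all probe sets. With no fold threshold there were 2372 genes higher, 3742 lower, 3839 differing between genotypes, 2760 with both directions, and 22663 and 18430 probe sets. For sex at day 24, chosen after seeing the data, mouse ID prefix as a term left 2 genes higher in males and 2 in females, and leaving out 1 mouse gave 2 to 33 and 1 to 14. Lmna differed by 0.2276 with the median over probe sets (exact permutation test, p = 0.114) and by 0.2948 to 0.4138 with 1 mouse left out, where leaving out any day 35 mouse gave an exact p of 0.0571. Krt15 changed sign without passing, at 0.0030 in males alone, 0.0239 with the median and 0.0096 without day 24 replicate 1 (lowest -0.08135). Cyp2g1 was 0.22 in males alone, and Wnt5b 0.25 without dim probe sets. The causes were not tested.

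Replicate numbers did not pair the mice (correlations of deviations 0.0675, 0.0659, 0.255 and -0.0476 for numbers 1 to 4, and only number 3 correlated best with itself). With a replicate block 193 genes were higher, 122 lower and 931 differed between genotypes, with 9127 and 5977 probe sets. Of the 93 named genes and single probe sets that passed, males alone lost 15 and 1 mouse left out lost 16. The median, which applies to genes only, lost 18 of 87. The filter on dim probe sets lost 4 of 86 and turned the sign of 1. Sex as a covariate lost 2, and the wild-type mice alone, the prefix block, the replicate block and centring lost 1 each.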
